A study of Mus musculus with 6 samples.

Results

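The nuclear-encoded subunits of respiratory complexes II, III, IV and V, with cytochrome c, were examined in RNA of mouse hearts after cardiac ischemia-reperfusion (I/R), the stopping and later return of coronary flow. The members were the rows of the deposited gene table whose symbol is Cyc1 or Cycs, begins with Uqcr or Atp5, is Sdha, Sdhb, Sdhc or Sdhd, or is a Cox symbol numbered 4 to 8, with dashed names left out. This gave 51 of 55359 rows, of which 4 belong to complex II, 9 to complex III, 1 is the electron carrier Cycs, 19 belong to complex IV and 18 to complex V. They carry 50 names, because Atp5o has 2 rows. Of the 51 rows, 48 passed the filter on low counts and were tested, and Cox7b2, Cox8c and the second Atp5o row were not. The name rule also takes in Cox7a2l, known as an assembly factor of respiratory supercomplexes, and Cox6c2, which the table annotates as a processed pseudogene.

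All animals were C57BL/6 mice, given AAV9 through the tail vein and operated on after 4 weeks (ischemia of 45 min, then reperfusion of 24 h), so every library came from an injured heart. One group of 3 libraries is labelled with a negative control shRNA (shNC 1 to 3) and the other group of 3 with an shRNA against YTHDF2, a reader protein of N6-methyladenosine in RNA (shYthdf2 1 to 3). The question was whether an shRNA directed at YTHDF2 alters transcripts of the injured heart. The design text also names a construct with the cTNT promoter, active in cardiomyocytes, and GFP, while RNA was taken from hearts that hold other cell types too. Whether replicates are separate animals is not stated, so the p-values rest on the spread between libraries alone, which may be technical. The libraries held 67023813 to 77561552 counts, and 0 counts allow a level of up to 3 counts, or 0.0388 to 0.0443 CPM (counts scaled to library size), for counting error only. All 12 cardiomyocyte markers checked were present, with a summed level of 44991, 62740.0 and 25832 CPM across shNC 1 to 3 against 33098, 31868 and 37274 CPM across shYthdf2 1 to 3.

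Ythdf2 itself was not lower in the libraries labelled shYthdf2, at 20.7, 24.3 and 27.0 CPM across shNC 1 to 3 against 25.1, 25.6 and 32.7 CPM across shYthdf2 1 to 3. Its log2 fold change was 0.21 ± 0.20 (SE, 95% interval -0.25 to 0.68), the edgeR adjusted p was 0.976, and p was 0.4 by an exact two-sided permutation test that cannot go below 0.1. Each direction given here is therefore between libraries by their labels. Of all library pairs, shYthdf2 1 and 2 were the most alike, and shNC 3 stood apart from shNC 1 and 2, for the subunit genes and over all genes. Over all genes with enough counts in a pair, shNC 3 had a log2 CPM correlation of 0.927 with shNC 1 and 0.922 with shNC 2. With the libraries labelled shYthdf2 it was 0.954 to 0.959, and between shNC 1 and 2 it was 0.969. These facts bear on every difference reported here. Values without single libraries are given for the results that changed sign and for some others.

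The respiratory chain sits in the inner mitochondrial membrane. Complex II (succinate dehydrogenase) passes electrons from succinate to ubiquinone, complex III passes them on to cytochrome c, and complex IV (cytochrome c oxidase) hands them to oxygen. Complex V (ATP synthase) uses the proton gradient built by the chain to make ATP. The beating heart depends on this route for nearly all of its ATP, and cardiomyocytes are unusually rich in mitochondria. Complex II is wholly nuclear-encoded, while complexes III, IV and V combine nuclear subunits with subunits made inside the mitochondrion. In complex IV several nuclear subunits exist as a ubiquitous isoform and a heart and muscle isoform.

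Subunit transcripts were high in shNC 1 and shNC 2 and lower in the other 4 libraries. The summed level of the 51 rows was 16941, 21398 and 11216 FPKM across shNC 1 to 3 against 11883, 11940.0 and 9875 FPKM across shYthdf2 1 to 3, where FPKM is the fragment count scaled to gene length and depth. The group means were 16518 ± 5104 FPKM (SD, n = 3) for shNC and 11233 ± 1176 FPKM (SD, n = 3) for shYthdf2. The difference between the group means was of about the size of the spread within shNC, since shNC 3 lay inside the range of the libraries labelled shYthdf2. The members took 2.91%, 3.63% and 1.93% of the counts of shNC 1 to 3 against 2.08%, 2.11% and 1.86% of those of shYthdf2 1 to 3. In bulk RNA, fewer cells of a type and less of an RNA per cell cannot be told apart.

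No member passed the test at an edgeR adjusted p under 0.05, where 2 of 20489 genes passed in all, which is 0.00976%. Both were higher in the libraries labelled shYthdf2, so the share of genes that passed as lower was 0%. At an unadjusted p under 0.05 stood 748 genes in either direction, or 3.65%. The adjusted p of the 48 tested members ran from 0.976 to 0.986. Their log2 fold change, shYthdf2 minus shNC, was below 0 for 47 of 48, beside 51.4% of all genes tested. The median was -0.62, beside -0.01 over all genes, so the median member was 1.54-fold higher in shNC. At an unadjusted p under 0.05, 5 members (10.4%) were lower in the libraries labelled shYthdf2, beside 1.77% of all genes, namely Cox6b2, Uqcr11, Cox6c, Uqcrq and Uqcr10. All 3 shNC libraries lay above all 3 libraries labelled shYthdf2 for 5 members (10.4%), beside 4.55% of all genes, and those were Uqcr11, Cox6a1, Cox6b2, Cox8a and Atp5g2. The members share their libraries, so the counts are not those of independent genes.

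**Figure D1:**
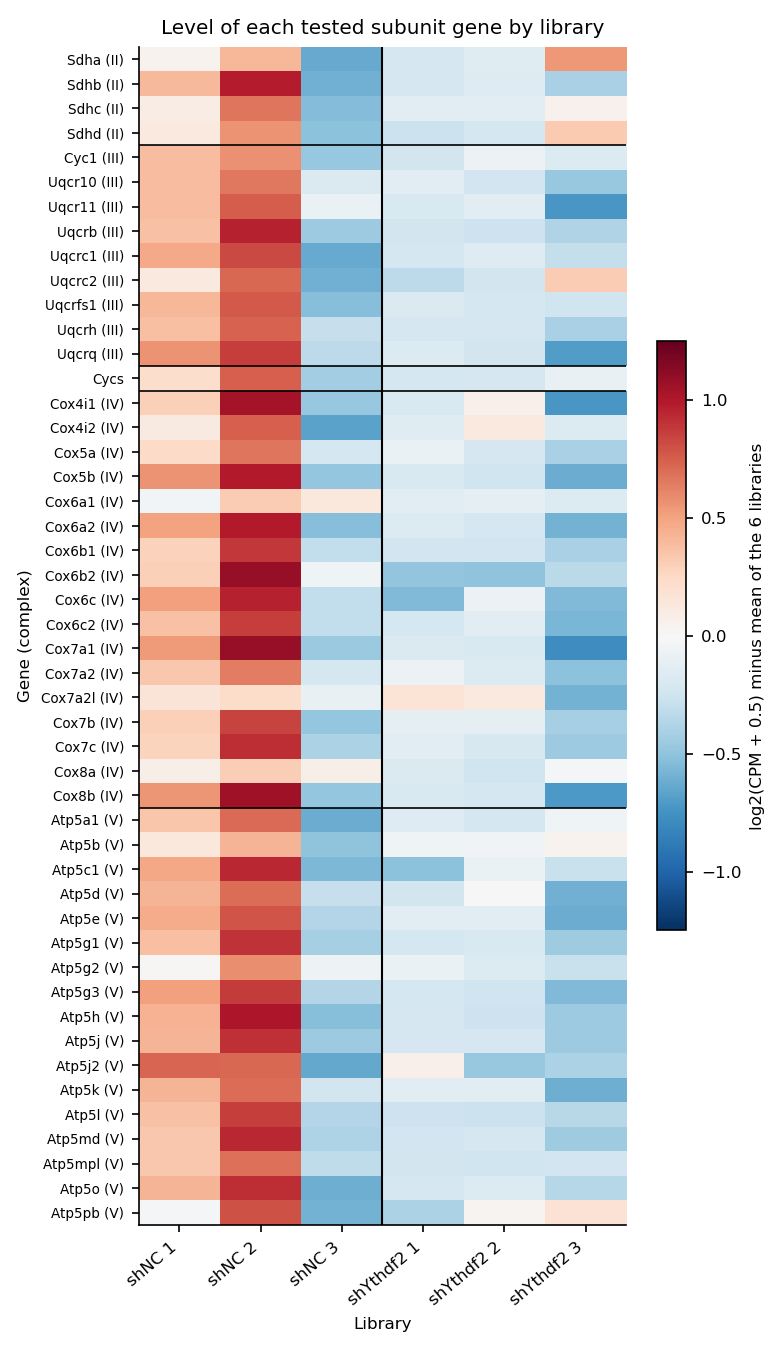
Heat map of the 48 tested subunit genes (rows, grouped by complex) in the 6 libraries (columns), as log2(CPM + 0.5) with each row centred on its mean. The columns of shNC 1 and shNC 2 are above the mean for nearly all genes, and shNC 3 is below it for most, like the libraries labelled shYthdf2.

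**Figure D2:**
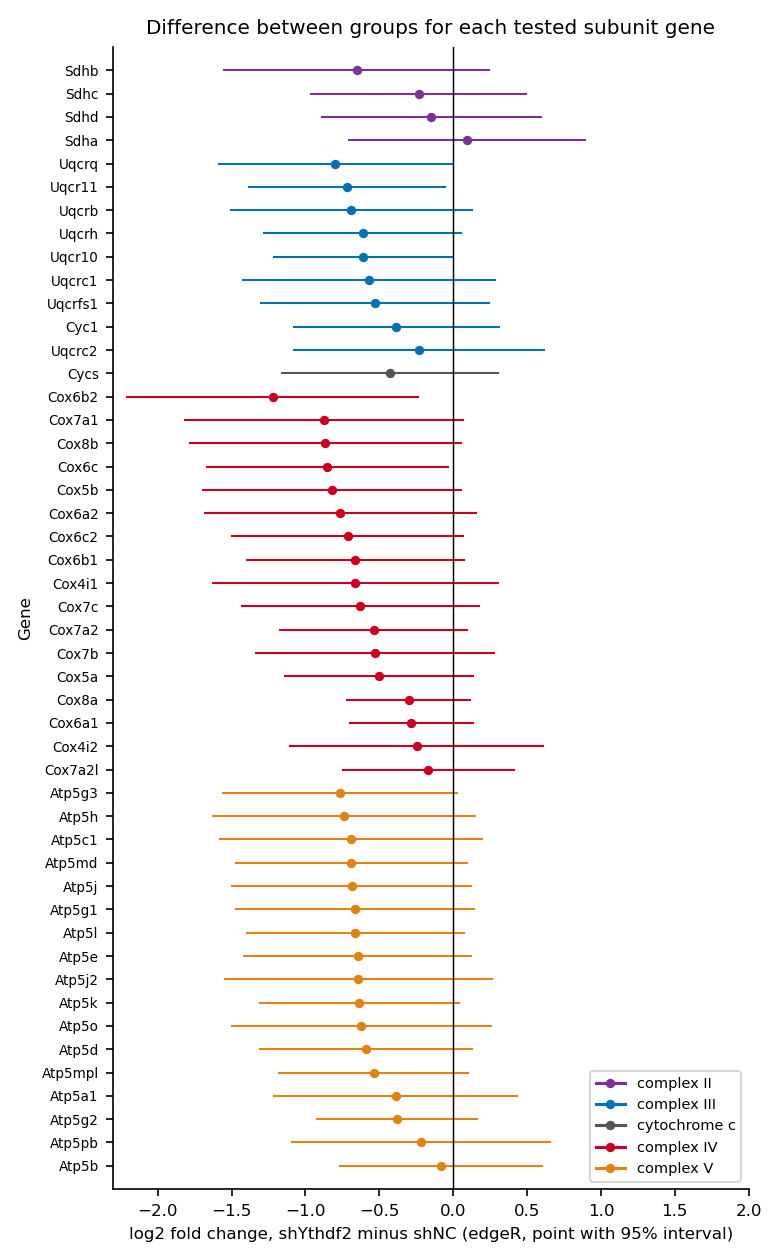
Difference between groups for each tested subunit gene, by complex, as the edgeR log2 fold change of shYthdf2 minus shNC (points) with its 95% interval (lines). Of 48 points 47 lie below 0, and the intervals of 5 genes lie wholly below 0.

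Complex II, the succinate dehydrogenase that also serves the tricarboxylic acid cycle, had the median nearest to 0, and shNC 3 was the lowest library for all 4 of its genes. Its summed level was 552, 721 and 366 FPKM across shNC 1 to 3 against 425, 437 and 514 FPKM across shYthdf2 1 to 3, and the median log2 fold change of its 4 genes was -0.19. Sdha, the flavoprotein subunit that oxidizes succinate (ENSMUSG00000021577, chromosome 13, minus strand, 74470373 to 74498399, in the coordinates of the deposited table, as for every gene here), had 499.6, 647 and 312 CPM across shNC 1 to 3 against 418, 435 and 703 CPM across shYthdf2 1 to 3. The highest library was shYthdf2 3 and the lowest shNC 3, and the groups overlapped. Its log2 fold change of 0.09 ± 0.34 (SE, 95% interval -0.70 to 0.89) was the single one above 0 among the members and turned to -0.14 without shNC 3 and -0.19 without shYthdf2 3.

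Sdhb, the iron-sulphur subunit (ENSMUSG00000009863, chromosome 4, plus strand, 140688514 to 140706504), had 671, 1002 and 334 CPM across shNC 1 to 3 against 438, 454 and 383 CPM across shYthdf2 1 to 3. It was highest in shNC 2 and lowest in shNC 3, with all libraries labelled shYthdf2 between shNC 3 and shNC 1, and the log2 fold change was -0.65 ± 0.38 (SE, 95% interval -1.55 to 0.24). The membrane anchors Sdhc and Sdhd bind ubiquinone. Sdhc (ENSMUSG00000058076, chromosome 1, minus strand, 170954734 to 170978172) had 215, 320.2 and 138 CPM across shNC 1 to 3 against 182, 182 and 208 CPM across shYthdf2 1 to 3, with a log2 fold change of -0.23 ± 0.31 (SE, 95% interval -0.96 to 0.49). Sdhd (ENSMUSG00000000171, chromosome 9, minus strand, 50507657 to 50515112) had 181, 245 and 116 CPM across shNC 1 to 3 against 137, 142 and 209 CPM across shYthdf2 1 to 3, with a log2 fold change of -0.15 ± 0.32 (SE, 95% interval -0.89 to 0.59). In both anchors shNC 2 was the highest and shNC 3 the lowest library, and both differences changed sign without shNC 2, to 0.12 for Sdhc and 0.14 for Sdhd. In shYthdf2 3 the level of Sdha, Sdhc and Sdhd was above that in shYthdf2 1 and 2, while that of Sdhb was below.

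Complex III takes electrons from ubiquinol, and its 9 nuclear genes had a summed level of 2779, 3304 and 1926 FPKM across shNC 1 to 3 against 1927, 1919 and 1662 FPKM across shYthdf2 1 to 3. The median log2 fold change was -0.61, all 9 were below 0, and none passed the test. Uqcr11, a small membrane subunit (ENSMUSG00000020163, chromosome 10, minus strand, 80238831 to 80242664), had 282, 366 and 204 CPM across shNC 1 to 3 against 189.9, 197 and 131 CPM across shYthdf2 1 to 3. The lowest shNC library lay just above the highest library labelled shYthdf2, for a log2 fold change of -0.72 ± 0.28 (SE, 95% interval -1.38 to -0.06), with an edgeR unadjusted p of 0.0370. Uqcrq, the small ubiquinone-binding subunit (ENSMUSG00000044894, chromosome 11, minus strand, 53318749 to 53321658), had 604, 749 and 327 CPM across shNC 1 to 3 against 365, 349 and 252 CPM across shYthdf2 1 to 3. Here shNC 3 lay among the libraries labelled shYthdf2, for a log2 fold change of -0.80 ± 0.34 (SE, 95% interval -1.59 to -0.01), with an edgeR unadjusted p of 0.0478.

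Uqcr10, another small subunit of the complex (ENSMUSG00000059534, chromosome 11, minus strand, 4651973 to 4654342), had 317, 381 and 213 CPM across shNC 1 to 3 against 219, 205 and 174 CPM across shYthdf2 1 to 3. Its log2 fold change was -0.61 ± 0.26 (SE, 95% interval -1.21 to -0.003), with an edgeR unadjusted p of 0.0491. Uqcrh, the hinge subunit that sits beside cytochrome c1 (ENSMUSG00000063882, chromosome 4, minus strand, 115924162 to 115932231), had 419, 537 and 264 CPM across shNC 1 to 3 against 278, 278 and 242 CPM across shYthdf2 1 to 3, and its log2 fold change was -0.61 ± 0.28 (SE, 95% interval -1.28 to 0.05). In both genes shNC 3 lay below shNC 1 and 2 and within the range of the libraries labelled shYthdf2. The smallest difference in the complex was that of Uqcrc2, a core subunit (ENSMUSG00000030884, chromosome 7, plus strand, 120234399 to 120258747), with 359.7, 547 and 219 CPM across shNC 1 to 3 against 265, 282 and 413 CPM across shYthdf2 1 to 3. In shYthdf2 3 it was above shNC 1, the log2 fold change was -0.23 ± 0.36 (SE, 95% interval -1.08 to 0.62), and without shNC 2 it was 0.15. The other core subunit, Uqcrc1, the Rieske iron-sulphur protein Uqcrfs1 and the small subunit Uqcrb had log2 fold changes of -0.57 ± 0.36 (SE), -0.53 ± 0.33 (SE) and -0.69 ± 0.35 (SE), and for all 3 shNC 2 was the highest and shNC 3 the lowest library.

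Electrons leave complex III through cytochrome c1 and reach complex IV on cytochrome c. Cyc1, which encodes cytochrome c1 (ENSMUSG00000022551, chromosome 15, plus strand, 76227723 to 76230460), had 619, 705 and 341 CPM across shNC 1 to 3 against 405, 451 and 420.2 CPM across shYthdf2 1 to 3. Cycs, which encodes the mobile carrier that is also known to trigger apoptosis when released (ENSMUSG00000063694, chromosome 6, minus strand, 50539543 to 50543518), had 563, 813 and 357 CPM across shNC 1 to 3 against 415, 419.9 and 454 CPM across shYthdf2 1 to 3. In both, shNC 1 and 2 were the highest libraries and shNC 3 the lowest. The log2 fold changes were -0.38 ± 0.30 (SE, 95% interval -1.07 to 0.31) for Cyc1 and -0.43 ± 0.31 (SE, 95% interval -1.16 to 0.30) for Cycs, and without shNC 2 the difference of Cycs was -0.10.

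Complex IV was the largest contributor to the members' FPKM, with a summed level of 8239, 10853 and 5402 FPKM across shNC 1 to 3 against 5731, 5741 and 4277 FPKM across shYthdf2 1 to 3. All of its 17 tested genes had a log2 fold change below 0, the median was -0.66, and none passed the test. Cox6b2, known as the testis isoform of subunit 6b (ENSMUSG00000051811, chromosome 7, minus strand, 4754791 to 4756093), had the lowest log2 fold change and the smallest p of the 48 tested members. It had 2.47, 4.63 and 1.83 CPM across shNC 1 to 3 against 1.22, 1.20 and 1.41 CPM across shYthdf2 1 to 3, so each shNC library was above each library labelled shYthdf2. The log2 fold change was -1.22 ± 0.42 (SE, 95% interval -2.21 to -0.24) and the edgeR unadjusted p was 0.0217. The gene was scarce, at a mean of 1.65 FPKM over the 6 libraries beside 537 FPKM for its somatic partner Cox6b1.

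Among the subunits with the smallest p that have no tissue isoform, Cox6c (ENSMUSG00000014313, chromosome 15, minus strand, 35926032 to 35938392) had 832, 1130.2 and 470.5 CPM across shNC 1 to 3 against 398, 553 and 398 CPM across shYthdf2 1 to 3. The value of shNC 3 lay within the range of the libraries labelled shYthdf2, the log2 fold change was -0.85 ± 0.35 (SE, 95% interval -1.67 to -0.04), and the edgeR unadjusted p was 0.0427. The Cox6c2 row lies on chromosome 12 and may share reads with Cox6c, which it tracked, with 13.9, 19.8 and 8.51 CPM across shNC 1 to 3 against 9.07, 9.64 and 7.03 CPM across shYthdf2 1 to 3. Cox5b, a subunit on the matrix side (ENSMUSG00000061518, chromosome 1, plus strand, 36730530 to 36732762), had 599, 805 and 289.7 CPM across shNC 1 to 3 against 355, 342 and 264 CPM across shYthdf2 1 to 3. It was high in shNC 1 and 2, its log2 fold change was -0.82 ± 0.37 (SE, 95% interval -1.69 to 0.06), and its pseudogene Cox5b-ps held 21.0% as many counts as Cox5b, so reads may be split between the 2 rows. With the pseudogene counts added, the log2 fold change was -0.82 again. Cox7a2l (ENSMUSG00000024248, chromosome 17, minus strand, 83809347 to 83824759) was nearly level between groups, with 127, 133 and 106 CPM across shNC 1 to 3 against 128, 124 and 75.5 CPM across shYthdf2 1 to 3. Only shYthdf2 3 was set apart there, below the other 5 libraries, the log2 fold change was -0.17 ± 0.25 (SE, 95% interval -0.75 to 0.41), and without shYthdf2 3 it was 0.04.

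The paired isoforms of subunits 6a, 7a and 8 had log2 fold changes of different size. Cox6a2, the heart and muscle isoform of subunit 6a (ENSMUSG00000030785, chromosome 7, minus strand, 127804607 to 127805559), had 1676, 2348 and 814 CPM across shNC 1 to 3 against 1045, 1022 and 785 CPM across shYthdf2 1 to 3. The ubiquitous isoform Cox6a1 (ENSMUSG00000041697, chromosome 5, minus strand, 115483701 to 115487040) had 123, 157 and 139 CPM across shNC 1 to 3 against 116, 117 and 113 CPM across shYthdf2 1 to 3. The muscle isoform was far lower in shNC 3 than in shNC 1 and 2, whereas the ubiquitous isoform in shNC 3 stayed between shNC 1 and 2. Their log2 fold changes were -0.76 ± 0.39 (SE, 95% interval -1.68 to 0.15) for Cox6a2 and -0.28 ± 0.18 (SE, 95% interval -0.70 to 0.13) for Cox6a1. The FPKM ratio of Cox6a2 to Cox6a1 was 14.0, 15.4 and 6.04 across shNC 1 to 3 against 9.32, 9.04 and 7.20 across shYthdf2 1 to 3. The mean ratio was 11.8 ± 5.06 (SD, n = 3) in shNC and 8.52 ± 1.15 (SD, n = 3) in shYthdf2, and the groups overlapped because shNC 3 had the lowest ratio of all.

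For subunit 8 too the muscle isoform had the larger log2 fold change. Cox8b, its heart and muscle isoform (ENSMUSG00000025488, chromosome 7, minus strand, 140478858 to 140480359), had 475, 674 and 230.4 CPM across shNC 1 to 3 against 284, 277 and 196 CPM across shYthdf2 1 to 3. Cox8a, the ubiquitous isoform (ENSMUSG00000035885, chromosome 19, minus strand, 7192518 to 7194981), had 122, 144 and 122 CPM across shNC 1 to 3 against 102, 97.6 and 114 CPM across shYthdf2 1 to 3. Cox8b was high in shNC 1 and 2, while Cox8a differed little within shNC and was lower in each library labelled shYthdf2. The log2 fold changes were -0.86 ± 0.39 (SE, 95% interval -1.78 to 0.05) for Cox8b and -0.30 ± 0.18 (SE, 95% interval -0.72 to 0.11) for Cox8a. The FPKM ratio of Cox8b to Cox8a was 6.70, 8.07 and 3.25 across shNC 1 to 3 against 4.77, 4.88 and 2.96 across shYthdf2 1 to 3. The lowest ratios were those of shNC 3 and shYthdf2 3.

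For subunit 7a both isoforms were high in shNC 1 and 2. Cox7a1, the heart and muscle isoform (ENSMUSG00000074218, chromosome 7, plus strand, 29883569 to 29885503), had 724, 1067 and 362 CPM across shNC 1 to 3 against 441, 439.9 and 293 CPM across shYthdf2 1 to 3. Cox7a2, the ubiquitous isoform (ENSMUSG00000032330, chromosome 9, minus strand, 79662643 to 79667160), had 326, 402 and 221 CPM across shNC 1 to 3 against 245, 229 and 180.4 CPM across shYthdf2 1 to 3. Both were highest in shNC 2 and lowest in shYthdf2 3. The log2 fold changes were -0.88 ± 0.40 (SE, 95% interval -1.82 to 0.07) for Cox7a1 and -0.54 ± 0.27 (SE, 95% interval -1.17 to 0.09) for Cox7a2, and the FPKM ratio of Cox7a1 to Cox7a2 was 3.91, 4.68 and 2.89 across shNC 1 to 3 against 3.18, 3.39 and 2.86 across shYthdf2 1 to 3. Whether the isoforms of a pair differed in their log2 fold change was not tested.

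**Figure D3:**
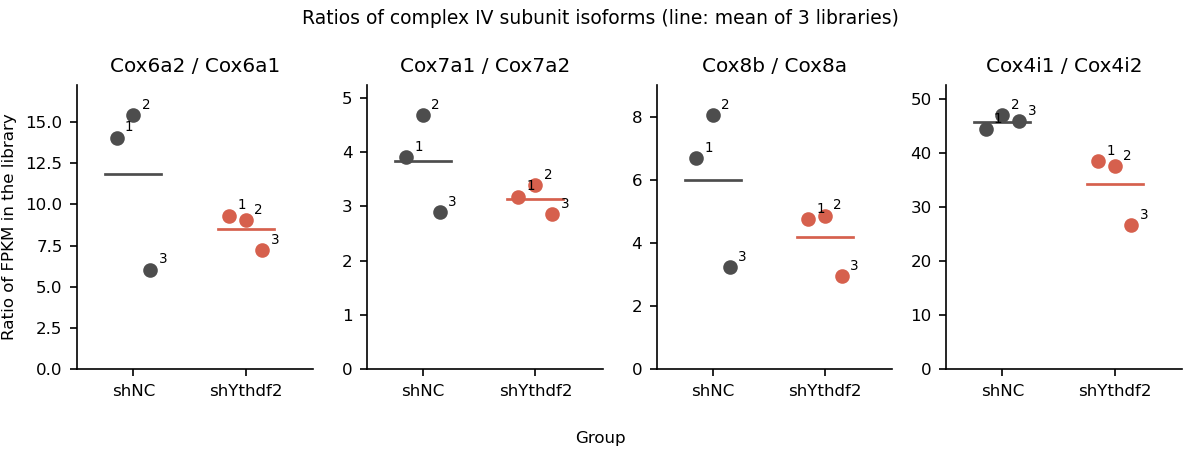
FPKM ratio of paired complex IV isoforms in each library (points, numbered by replicate) with the mean of 3 libraries per group (line). For Cox6a2 over Cox6a1 and Cox8b over Cox8a, shNC 3 lies far below shNC 1 and 2, and for Cox4i1 over Cox4i2 the groups do not overlap.

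For subunits 4 and 6b the ratios of the isoforms did not overlap between groups, in opposite directions. Subunit 4 is the largest nuclear-encoded subunit of complex IV, and its isoform 2 is known from lung and from cells short of oxygen. Cox4i1 (ENSMUSG00000031818, chromosome 8, plus strand, 121394961 to 121400946) had 1155, 1928 and 675 CPM across shNC 1 to 3 against 823, 986 and 567 CPM across shYthdf2 1 to 3, and Cox4i2 (ENSMUSG00000009876, chromosome 2, plus strand, 152596093 to 152606957) had 13.2, 20.8 and 7.48 CPM across shNC 1 to 3 against 10.9, 13.3 and 10.8 CPM across shYthdf2 1 to 3. Each was highest in shNC 2, and their log2 fold changes were -0.66 ± 0.41 (SE, 95% interval -1.63 to 0.30) and -0.25 ± 0.37 (SE, 95% interval -1.10 to 0.61), the latter turning to 0.17 without shNC 2. The FPKM ratio of Cox4i1 to Cox4i2 was 44.5, 47.1 and 46.0 across shNC 1 to 3 against 38.5, 37.6 and 26.8 across shYthdf2 1 to 3, with means of 45.9 ± 1.29 (SD, n = 3) in shNC and 34.3 ± 6.55 (SD, n = 3) in shYthdf2. Cox6b1 (ENSMUSG00000036751, chromosome 7, minus strand, 30316286 to 30325576) had 500.0, 755 and 330.0 CPM across shNC 1 to 3 against 347, 347 and 308 CPM across shYthdf2 1 to 3, with a log2 fold change of -0.66 ± 0.31 (SE, 95% interval -1.40 to 0.07). The FPKM ratio of Cox6b1 to Cox6b2 was 319.9, 258 and 286 across shNC 1 to 3 against 460.3, 472 and 350.1 across shYthdf2 1 to 3, and it was higher in each library labelled shYthdf2. These are 2 of 9 ratios computed, described without a test. The 9 include Cox6c over the pseudogene row Cox6c2, which is no isoform pair, and the ratios among Atp5g1, Atp5g2 and Atp5g3, which depend on each other. How often ratios of other genes separate the groups was not computed.

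Cox7b2, a testis isoform of subunit 7b (ENSMUSG00000049387, chromosome 5, minus strand, 71600167 to 71705548), was the member that separated the groups by presence. Its counts were 35, 8 and 34 across shNC 1 to 3, against 0 counts in each library labelled shYthdf2. The mean level was at least 8.67-fold lower in the libraries labelled shYthdf2, against a floor of 3 counts per library, or 0.0388 to 0.0416 CPM there. The gene did not pass the filter of the edgeR test. In DESeq2, run without that filter, its adjusted p was 0.0257, where 47 of 24411 genes with an adjusted p passed in either direction, or 0.193%, and 0.0533% were lower. In edgeR without the filter the adjusted p was 0.718. At 0.118 to 0.473 CPM in shNC it stood far below its partner Cox7b, whose log2 fold change was -0.53 ± 0.34 (SE). Cox8c, the testis isoform of subunit 8 (ENSMUSG00000043319, chromosome 12, plus strand, 102865575 to 102866785), had 0 counts in all 6 libraries. The remaining complex IV genes Cox5a and Cox7c had log2 fold changes of -0.50 ± 0.27 (SE) and -0.63 ± 0.34 (SE).

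The bases before the start sites of the paired isoforms are shown because the isoforms of subunits 6a, 7a and 8 had differences of different size. The 250 bases upstream of each start come from RefSeq, build GRCm38.p6, whose table held 37 of the 50 names. The windows are chr5:115348959-115349208 on the minus strand for Cox6a1, chr7:30183921-30184170 on the plus strand for Cox7a1, chr9:79759854-79760103 on the minus strand for Cox7a2, chr19:7217617-7217866 on the minus strand for Cox8a and chr7:140900447-140900696 on the minus strand for Cox8b. Each is written 5′ to 3′ along the gene, with matches to the searched motifs in capitals.
Cox6a1: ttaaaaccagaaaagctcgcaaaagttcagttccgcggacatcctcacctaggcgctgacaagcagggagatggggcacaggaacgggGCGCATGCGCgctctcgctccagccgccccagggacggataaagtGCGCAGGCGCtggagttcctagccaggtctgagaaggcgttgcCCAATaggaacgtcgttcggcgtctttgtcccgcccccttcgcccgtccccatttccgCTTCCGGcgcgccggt
Cox7a1: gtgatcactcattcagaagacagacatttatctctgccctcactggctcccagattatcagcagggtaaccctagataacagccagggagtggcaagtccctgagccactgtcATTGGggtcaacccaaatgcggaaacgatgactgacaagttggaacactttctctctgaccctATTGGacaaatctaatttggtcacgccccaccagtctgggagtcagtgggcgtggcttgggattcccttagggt
Cox7a2: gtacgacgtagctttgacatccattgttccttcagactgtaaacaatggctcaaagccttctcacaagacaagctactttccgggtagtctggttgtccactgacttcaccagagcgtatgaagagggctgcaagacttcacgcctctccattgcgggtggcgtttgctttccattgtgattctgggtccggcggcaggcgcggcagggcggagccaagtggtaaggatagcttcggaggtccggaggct
Cox8a: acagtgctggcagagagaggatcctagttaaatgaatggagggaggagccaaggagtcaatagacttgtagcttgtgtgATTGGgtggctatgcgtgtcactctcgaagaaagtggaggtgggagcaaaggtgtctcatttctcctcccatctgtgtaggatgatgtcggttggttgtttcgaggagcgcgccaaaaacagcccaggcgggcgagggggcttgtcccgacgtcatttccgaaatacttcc
Cox8b: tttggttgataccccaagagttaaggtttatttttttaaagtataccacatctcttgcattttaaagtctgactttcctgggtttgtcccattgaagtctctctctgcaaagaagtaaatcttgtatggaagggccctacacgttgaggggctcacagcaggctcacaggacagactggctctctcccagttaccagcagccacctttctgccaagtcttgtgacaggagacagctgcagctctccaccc
Motifs were searched on both strands as GCGCA and GCGC with any 1 base between them for NRF1, CCGGAAG for ETS factors, AAGGTCA for estrogen-related receptors and CCAAT for the CCAAT box. In Cox6a1 the NRF1 letters began at -162 and -117 from the start site, CCAAT at -74 and the ETS letters, on the other strand, at -16. Cox7a1 held the CCAAT letters on the other strand at -137 and -74, and Cox8a at -171. No match stood in the windows of Cox7a2 and Cox8b, and none of the matches shown overlapped another.

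Over all members with a window, 7 genes held the NRF1 letters, namely Sdha, Sdhd, Cox6a1, Atp5c1, Atp5g2, Atp5h and Atp5k. That is 17.5% of their 40 windows, beside 3.74% of all 32851 windows in the RefSeq table. The ETS letters stood in 22.5% of member windows, beside 6.91% of all, and the CCAAT letters in 55.0%, beside 33.8%. The letters of estrogen-related receptors stood in 2 of the 40 windows, beside 4.08% of all. Among the tested members the median log2 fold change was -0.38 for the 7 genes with the NRF1 letters and -0.63 for the 29 genes with a window without them. For the other motifs the medians with and without the letters were -0.66 and -0.61 for ETS, -0.71 and -0.62 for estrogen-related receptors and -0.65 and -0.58 for CCAAT. These medians are a description with no test. No window was read for Atp5a1, Atp5mpl, Cox4i1, Cox4i2, Cox6a2, Cox6c, Cox6c2, Cox8c, Cyc1, Sdhc, Uqcrb, Uqcrc2 and Uqcrq.

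Complex V had a summed level of 5227, 6329 and 3416 FPKM across shNC 1 to 3 against 3689, 3730.5 and 3303 FPKM across shYthdf2 1 to 3, a median log2 fold change of -0.64 and 17 of 17 tested genes below 0, none of which passed the test. By the roles of its subunits, the medians were -0.59 for the 5 genes of the F1 part (alpha to epsilon) and -0.67 for the 3 genes of the rotating c ring. They were -0.65 for the 4 tested genes of the peripheral stalk and -0.64 for 5 small membrane subunits. Within the F1 part the beta subunit had the smallest log2 fold change. Atp5b, which carries the catalytic sites (ENSMUSG00000025393, chromosome 10, plus strand, 127919142 to 127926260), had 2619, 3227 and 1686 CPM across shNC 1 to 3 against 2312, 2318 and 2478 CPM across shYthdf2 1 to 3. Only shNC 1 and 2 were above the libraries labelled shYthdf2 and shNC 3 was below them, and the log2 fold change was -0.08 ± 0.29 (SE, 95% interval -0.77 to 0.60), turning to 0.14 without shNC 2. The alpha, gamma, delta and epsilon subunits Atp5a1, Atp5c1, Atp5d and Atp5e had log2 fold changes of -0.39 ± 0.35 (SE), -0.69 ± 0.38 (SE), -0.59 ± 0.31 (SE) and -0.65 ± 0.33 (SE).

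The c ring is built from 1 protein that 3 genes encode with different import sequences. Atp5g3 (ENSMUSG00000018770, chromosome 2, minus strand, 73738791 to 73741670) had 1547, 1990.3 and 844 CPM across shNC 1 to 3 against 929.8, 909.8 and 739 CPM across shYthdf2 1 to 3, with a log2 fold change of -0.76 ± 0.34 (SE, 95% interval -1.56 to 0.03). Atp5g1 (ENSMUSG00000006057, chromosome 11, minus strand, 95959678 to 95966496) had 1130.3, 1636 and 654 CPM across shNC 1 to 3 against 749.9, 764 and 642 CPM across shYthdf2 1 to 3, with a log2 fold change of -0.67 ± 0.34 (SE, 95% interval -1.47 to 0.14). Both were high in shNC 1 and 2 alone. Atp5g2 (ENSMUSG00000062683, chromosome 15, minus strand, 102571299 to 102579562) had 214, 316 and 202 CPM across shNC 1 to 3 against 199.8, 188 and 175 CPM across shYthdf2 1 to 3. Its groups did not overlap, by a narrow margin between shNC 3 and shYthdf2 1, for a log2 fold change of -0.38 ± 0.23 (SE, 95% interval -0.92 to 0.16). Atp5g3 made up 66.5%, 63.6% and 60.4% of the FPKM of the 3 genes across shNC 1 to 3 against 61.1%, 60.9% and 59.1% across shYthdf2 1 to 3. The share of Atp5g2 was 11.96%, 13.2% and 18.8% across shNC 1 to 3 against 17.1%, 16.4% and 18.2% across shYthdf2 1 to 3. For both shares shNC 3 lay with or near the libraries labelled shYthdf2.

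Small membrane subunits hold ATP synthase dimers together at the edges of the cristae. Atp5k, subunit e (ENSMUSG00000050856, chromosome 5, minus strand, 108581110 to 108582314), had 353, 427 and 224 CPM across shNC 1 to 3 against 237, 237 and 171 CPM across shYthdf2 1 to 3, with a log2 fold change of -0.64 ± 0.29 (SE, 95% interval -1.31 to 0.04). Atp5l, subunit g (ENSMUSG00000038717, chromosome 9, minus strand, 44823855 to 44832040), had 391, 551 and 235 CPM across shNC 1 to 3 against 254, 252 and 238 CPM across shYthdf2 1 to 3, with a log2 fold change of -0.66 ± 0.31 (SE, 95% interval -1.40 to 0.07). Both were high in shNC 1 and 2, and shNC 3 was close to the libraries labelled shYthdf2. Atp5md, also called DAPIT (ENSMUSG00000071528, chromosome 19, minus strand, 47071903 to 47079086), had 296, 451 and 179 CPM across shNC 1 to 3 against 199, 203 and 172 CPM across shYthdf2 1 to 3, with a log2 fold change of -0.69 ± 0.33 (SE, 95% interval -1.47 to 0.09). The other 2, Atp5j2 and Atp5mpl, had log2 fold changes of -0.64 ± 0.39 (SE) and -0.54 ± 0.27 (SE), and Atp5j2 was the 1 of the 48 tested members whose highest library was shNC 1.

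The peripheral stalk keeps the F1 head from turning with the rotor. Its genes Atp5h, Atp5j and Atp5o had log2 fold changes of -0.74 ± 0.38 (SE), -0.69 ± 0.34 (SE) and -0.62 ± 0.37 (SE). The b subunit Atp5pb had a smaller one, -0.22 ± 0.37 (SE), which was 0.24 without shNC 2. The second Atp5o row (ENSMUSG00000116933, chromosome 16, minus strand, 91481286 to 91723870) overlaps the first and had 0 counts in all libraries. How reads in the overlap were assigned is not stated. Levels in FPKM between genes depend on the gene length behind them, which ran from 258 bases for Cox6c2 to 7179 bases for Atp5l and exceeds the length of a single mRNA where a gene has many annotated transcripts.

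The spread within each group had a shape of its own. shNC 2 was the highest library for 46 of 48 tested members, or 95.8%, beside 20.9% of all genes. shNC 1 and 2 lay above the other 4 libraries for 41 members, or 85.4%, beside 17.3% of all genes. In CPM, shNC 3 lay below shNC 1 and 2 for 47 members, or 97.9%, beside 38.9% of all genes, Cox6a1 being the exception. Cox8a was nearly tied there, at 121.79 CPM in shNC 1 and 121.76 CPM in shNC 3. CPM carry TMM factors of 0.897 for shNC 2 and 1.134 for shNC 3. In FPKM, which do not, Cox6a1 and Cox8a were highest among the shNC libraries in shNC 3, and Atp5g2 and Cox7a2l in shNC 3 lay between shNC 1 and 2. Relative to the mean of shNC 1 and 2, the median member in shNC 3 was at -1.04 on the log2 scale, beside 0.01 over all genes. The medians of complexes II, III, IV and V on that measure were -0.92, -1.05, -1.04 and -1.06. Against the libraries labelled shYthdf2, shNC 3 was below all 3 for 22 members (45.8%), beside 29.8% of all genes. It was within their range for 21 members (43.8%), close to the 39.8% of all genes. Within or below that range it lay for 43 members (89.6%), beside 69.6% of all genes, and it was above the range for the other 5.

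In shYthdf2 3 the complexes had medians of either sign. Relative to the mean of shYthdf2 1 and 2, the median was -0.22 over all 48, beside -0.03 over all genes, with 0.39 for complex II, -0.14 for complex III, -0.30 for complex IV and -0.21 for complex V. The 10 members above both other libraries were Sdha, Sdhc, Sdhd, Uqcrc2, Cycs, Cox6b2, Cox8a, Atp5a1, Atp5b and Atp5pb, which is 20.8% of the tested members beside 38.9% of all genes. Below both were 34 members, or 70.8%, beside 41.1% of all genes. Across the 48 members this difference had a Spearman correlation of 0.389 with gene length, and the log2 fold change between groups one of 0.243, both given as a description of genes that share their libraries. The members were short, with a median length of 1818 bases beside 3950 over all genes. With per-library offsets fitted to gene length the median log2 fold change of the members was -0.54. The part of gene length in the differences between libraries was not tested further.

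**Figure D4:**
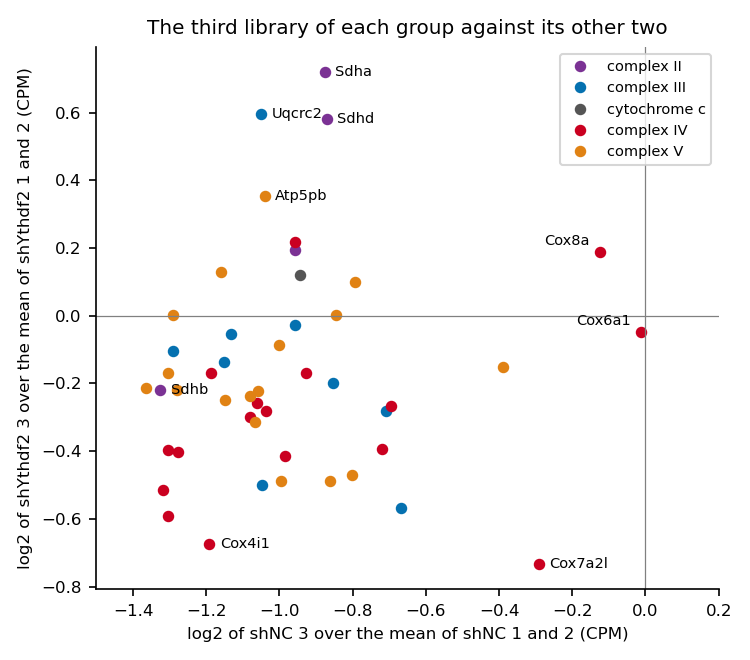
Each point is a tested subunit gene, coloured by complex, with the log2 CPM ratio of shNC 3 over the mean of shNC 1 and 2 on the x axis and that of shYthdf2 3 over the mean of shYthdf2 1 and 2 on the y axis. All points lie left of 0 on the x axis, with Cox6a1 and Cox8a nearest to it, while Sdha, Sdhd and Uqcrc2 are highest on the y axis and Cox7a2l and Cox4i1 lowest.

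The size of the difference between groups rested on which control libraries entered. Without shNC 3 all 48 tested members had a log2 fold change below 0, beside 48.5% of all genes, the median log2 fold change was -0.89, and 39 were at an edgeR unadjusted p under 0.05, beside 9.34% of all genes. The smallest edgeR adjusted p of a member was then 0.0584, so none passed, while 211 of all genes did, or 0.993%. Without shNC 2, where Cox7b2 also passed the filter, the median was -0.31 and 42 of 49 members were below 0, beside 52.3% of all genes. At an unadjusted p under 0.05 stood 1 of them, lower, beside 0.993% of all genes. Without shNC 1 or any 1 library labelled shYthdf2 the median stayed between -0.67 and -0.54. The 6 members with the lowest log2 fold changes in the fit of all libraries were Cox6b2, Cox7a1, Cox8b, Cox6c, Cox5b and Uqcrq. Without shNC 3 their values were -1.47, -1.19, -1.18, -1.12, -1.13 and -1.07. Without shNC 2 they were -0.75, -0.47, -0.48, -0.53, -0.47 and -0.53.

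**Figure D5:**
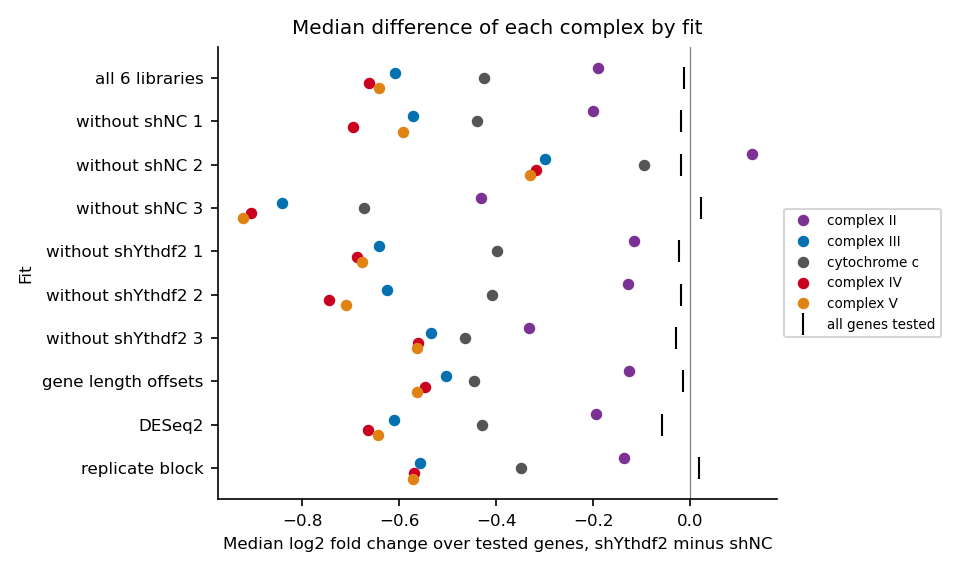
Median log2 fold change (shYthdf2 minus shNC) of the tested genes of each complex (coloured points) and of all genes tested (black ticks), by fit. The points of complexes III, IV and V lie near -0.3 without shNC 2 and below -0.8 without shNC 3, and complex II crosses 0 without shNC 2.

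The mitochondrially encoded partners of these subunits were lowest in shNC 3, and the libraries labelled shYthdf2 lay above shNC 3 for each gene. The 6 protein-coding genes of the mitochondrial chromosome for complexes III to V had a median log2 fold change of 0.04, with 3 lower and 3 higher and none past the test. The 3 lower ones were mt-Co2, mt-Co3 and mt-Atp6, with log2 fold changes of -0.01, -0.08 and -0.02. For these 3 genes each library labelled shYthdf2 lay below shNC 1 and 2, as for most members. mt-Co1, the catalytic subunit of complex IV, had 82973, 77918 and 55871 CPM across shNC 1 to 3 against 85421, 85853 and 94785 CPM across shYthdf2 1 to 3. It was lowest in shNC 3 and its log2 fold change was 0.30 ± 0.34 (SE). Each library labelled shYthdf2 lay above each shNC library, as for 4.95% of all genes. mt-Cytb, the cytochrome b of complex III, had 34242, 36477 and 25195 CPM across shNC 1 to 3 against 32441, 33080.0 and 37375 CPM across shYthdf2 1 to 3, with a log2 fold change of 0.10 ± 0.31 (SE). mt-Atp8, a membrane subunit of complex V, had 2420.4, 2155 and 1622 CPM across shNC 1 to 3 against 2368, 2331 and 3248 CPM across shYthdf2 1 to 3, with a log2 fold change of 0.36 ± 0.27 (SE).

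Other nuclear genes of respiration were read as lists. All 37 complex I subunits were below 0, beside 51.4% of all genes, with a median of -0.70. At an edgeR unadjusted p under 0.05 stood 5 of them, lower, beside 1.77% of all genes, and none passed the test. Ndufb3, an accessory subunit, had 301, 409 and 168 CPM across shNC 1 to 3 against 179, 172 and 145 CPM across shYthdf2 1 to 3, high in shNC 1 and 2 like most members. The 7 mitochondrial complex I genes had a median of 0.15, with 6 of 7 higher. Of 14 tricarboxylic acid cycle genes 12 were below 0, with a median of -0.30. Suclg2, a subunit of the GTP-forming succinyl-CoA synthetase, had 68.0, 98.8 and 46.5 CPM across shNC 1 to 3 against 15.4, 15.4 and 41.5 CPM across shYthdf2 1 to 3. Its groups did not overlap, with shNC higher, as for 4.55% of all genes.

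Assembly factors insert cofactors or bring subunits together and are no part of the finished complex. The median log2 fold change was -0.38 over 4 factors of complex II, -0.14 over 6 of complex III, -0.18 over 24 of complex IV and -0.50 over 4 of complex V, and none of these genes passed the test. Uqcc3, an assembly factor of complex III, had 50.5, 61.8 and 35.6 CPM across shNC 1 to 3 against 31.6, 31.7 and 27.2 CPM across shYthdf2 1 to 3, and Uqcc2, another one, had 113, 153 and 118 CPM across shNC 1 to 3 against 89.5, 88.0 and 78.7 CPM across shYthdf2 1 to 3. In both the groups did not overlap, with shNC higher, as for 4.55% of all genes. The log2 fold changes were -0.71 ± 0.23 (SE) and -0.58 ± 0.19 (SE). Fmc1, an assembly factor of complex V, had 67.4, 83.1 and 27.2 CPM across shNC 1 to 3 against 32.2, 32.4 and 28.7 CPM across shYthdf2 1 to 3, and shNC 3 was as low as the libraries labelled shYthdf2. Of the 24 factors of complex IV 15 were below 0 and 9 above. Cmc2, the one with the smallest p, had a log2 fold change of -0.68 ± 0.25 (SE), and Pet100 one of -0.54 ± 0.25 (SE). Both were higher in each shNC library than in each library labelled shYthdf2, as were 4.55% of all genes. Sco2, a scarce copper chaperone of complex IV, was higher, with 2.94, 2.40 and 1.55 CPM across shNC 1 to 3 against 2.59, 5.10 and 6.21 CPM across shYthdf2 1 to 3, and its groups overlapped. The 14 regulators of respiratory genes, such as Ppara, a nuclear receptor of fatty acid oxidation, and Pprc1, a coactivator of the PGC-1 family, had a median of 0.10, with 4 below 0 and 10 above, and none passed.

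Markers of cell types were compared over the same libraries. Of 12 cardiomyocyte markers 9 were below 0, with a median of -0.48. Their summed level given at the start was highest in shNC 2 and lowest in shNC 3, the order seen for the subunit sum among the shNC libraries. Among the libraries labelled shYthdf2 the orders differed. There the marker sum was highest in shYthdf2 3 (37274 CPM), while the subunit sum was lowest in it (20446, 20834 and 18960 CPM across shYthdf2 1 to 3). Tnni3, a troponin subunit, had 3390.5, 4877 and 1492 CPM across shNC 1 to 3 against 1827, 1806 and 1498 CPM across shYthdf2 1 to 3. Tnnc1, another troponin subunit, had 2603.6, 3753.9 and 2712.4 CPM across shNC 1 to 3 against 1987.9, 1959.8 and 1886.2 CPM across shYthdf2 1 to 3. Unlike Tnni3, Tnnc1 in shNC 3 lay between shNC 1 and 2. Its groups did not overlap, with shNC higher, as for 4.55% of all genes. Ttn, the giant sarcomere protein, had 811, 798 and 568 CPM across shNC 1 to 3 against 1329.8, 1321 and 1983 CPM across shYthdf2 1 to 3. It was higher in each library labelled shYthdf2, as were 4.95% of all genes. All 6 erythroid markers were below 0, with a median of -1.78, and their sum was 2096, 3692 and 479 CPM across shNC 1 to 3 against 614, 613 and 641 CPM across shYthdf2 1 to 3. As for the subunits, shNC 1 and 2 were far above the other 4. The macrophage marker sum of 6 genes was 316, 321 and 849 CPM across shNC 1 to 3 against 539, 550.4 and 563 CPM across shYthdf2 1 to 3, and that of 6 fibroblast markers was 877, 728 and 1341 CPM across shNC 1 to 3 against 780.4, 798 and 1514 CPM across shYthdf2 1 to 3, with shNC 3 above shNC 1 and 2 in both sums. In shNC 3 a single gene held 529 CPM of the macrophage sum. Among the fibroblast markers Col1a1 and Col1a2 were higher in shNC 3 than in shNC 1 and 2. Dcn, the one with the smallest p, was lower there, with 254, 244 and 130 CPM across shNC 1 to 3.

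Neutrophil and platelet markers followed another split. The sum of 6 neutrophil markers was 118, 185 and 329.7 CPM across shNC 1 to 3 against 451, 449 and 103 CPM across shYthdf2 1 to 3, and the sum of 5 platelet markers was 42.2, 34.8 and 50.8 CPM across shNC 1 to 3 against 155, 159 and 51.5 CPM across shYthdf2 1 to 3. Both were highest in shYthdf2 1 and 2, whose summed subunit level was above that of shYthdf2 3. The 6 endothelial markers had a median of 0.02, with 3 lower and 3 higher. No gene of these marker lists was at 0 in all libraries. The part of cell composition in the differences of the subunit genes was not tested.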

How the data were processed

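Total RNA of 6 heart samples was made into TruSeq libraries, per the labels' protocols. The deposited table gives, per the file headers, raw counts per gene and FPKM that the authors computed, with genes without counts listed at 0.0001. The submitters' processing notes list Bowtie 0.12.2 and mm8 without saying what each was used for. Counting tool, annotation, strandedness and the build of the coordinates were not given in the sources used here.

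The members, gene lists and tests were chosen with earlier results of these data known. The counts of 20489 genes kept by filterByExpr were tested in edgeR 4.0.16 (R 4.3.3) by glmQLFTest, two-sided, after TMM scaling, with Benjamini-Hochberg adjustment over all of them and a threshold of 0.05. CPM refer to TMM-scaled totals. Standard errors come from the F statistic. Depth was 67023813 to 77561552 counts. Gene length was taken from the ratio of counts to FPKM. Alternatives were DESeq2 1.42.0, limma 3.58.1 (voom on counts, and log2(FPKM + 0.5) and log2(FPKM + 1)), other filters and scalings, length offsets, a replicate block, shYthdf2 1 and 2 summed, and each library left out. Pseudogene rows summed onto their member were added after seeing the data. The edgeR procedure was tested on simulated counts, at folds larger than that of the median member. It does not show how often a difference of that member's size would pass. Values per library were printed for all genes of complex II, Cyc1, Cycs, the 4 smallest p and the highest log2 fold change in each of complexes III, IV and V, isoform pairs and untested members, and for at most 3 genes of each other list. The values of Cox6c2 were added after they had been seen.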

Additional observations from a re-analysis of the deposited data

How the results depend on the processing

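The count of genes past the adjusted threshold, 2 in edgeR, was 47 in DESeq2, 1 in limma on log2(FPKM + 0.5), 1 on log2(FPKM + 1), 1 in limma-voom and 0 with shYthdf2 1 and 2 summed. With single libraries left out it ran from 0, without any 1 library labelled shYthdf2, to 211, without shNC 3, and was 1 without shNC 1 or shNC 2. Among the members the count was 0, and 1 in DESeq2, namely Cox7b2. The replicate block gave 0 genes in all. Same-numbered libraries correlated at -0.01, -0.03 and -0.06 after removal of group means, so the numbers were not taken to pair samples. The median log2 fold change of the members ran from -0.66 to -0.52 over the 12 alternatives with no library left out and from -0.89 to -0.31 with single libraries left out. With single libraries left out, the median of complex II ran from -0.43 (without shNC 3) to 0.13 (without shNC 2). Over the same pair of settings the log2 fold change ran from -0.30 to 0.14 for Atp5b, -0.54 to 0.17 for Cox4i2, -0.48 to 0.12 for Sdhc, -0.38 to 0.14 for Sdhd and -0.50 to 0.15 for Uqcrc2. For Cox7a2l it ran from -0.29 (without shYthdf2 1) to 0.042 (without shYthdf2 3). For Sdha it ran from -0.19 (without shYthdf2 3) to 0.36 (without shNC 2), and it was -0.14 without shNC 3. The cause was not tested. Over 18 alternatives for Ythdf2 and the 31 tested members named by the rule, 568 of 576 values kept direction and side of the threshold. With adjusted p of 0.976 or more in the fit of all libraries, a change of side was unlikely, and the count takes no account of size. Without shNC 2, Cycs went from -0.43 to -0.095 and Cox4i1 from -0.66 to -0.21. Without shNC 3 they went to -0.67 and -0.96. Among the other tested members Atp5pb was at 0.24 without shNC 2. Each group had 3 libraries, and depth limited the fold of Cox7b2, which had 0 counts in the libraries labelled shYthdf2.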
